A study of Mus musculus with 8 samples.

Results

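The genes described here are 42 genes of the germline, which serve germ cell identity, spermatogonial stem cells, the piRNA pathway, meiosis and the oocyte. They were taken by symbol from an expression table of 54232 gene rows, and each symbol matched 1 row. The cells, of the mouse strain background C57BL/6, carry the label female germline stem cell (FGSC), meaning a mitotic germ cell of the ovary grown in culture. RNA was sequenced from 3 libraries of cells treated for 3 h with C28 (028 in the sample names), which the labels give as a code and do not describe further, and from 3 libraries of cells given its solvent DMSO, labelled the control group. H3K27ac was profiled in 1 C28 and 1 control library, and those peaks were not tied to the genes because their positions are in the build mm9, for which no gene starts were at hand. No allele, age or dose is given in the labels, and they do not say whether the replicates were separate cultures, so that p-values reflect the scatter of these 6 libraries alone, and this scatter may be technical.

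Germ cells are set apart by RNA-binding proteins that hold them in the lineage, among them the helicase Ddx4 and the translational regulators Dazl, Nanos2, Nanos3 and Dnd1. Small RNAs bound to PIWI proteins, the piRNAs, guide the silencing of transposons, with Tudor-domain proteins as scaffolds. On entry into meiosis, cohesin with Rec8 and the synaptonemal complex of Sycp1, Sycp2 and Sycp3 organize the chromosomes, and oocytes then make zona pellucida proteins and growth factors. Many of these genes have promoters rich in CpG that are silent in other tissues, and the E-box CACGTG in such promoters is bound by factors that pair with MAX, including a Polycomb complex known to silence germline genes in mouse embryonic stem cells.

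Most of the 42 genes had few reads or none. Of these, 17 had 0 reads in all 6 libraries, 12 had between 1 and 9 reads in total, 5 had more but averaged below 10 normalized counts (read counts divided by the authors' size factor), and 8 averaged 10 or more. The 12 genes with 1 to 9 reads shared 26 reads. Among 20462 protein-coding genes matched by symbol to RefSeq, 26.1% had 0 reads and 53% averaged 10 or more, against 40.5% and 19% of the 42. Over all 54232 rows, 52.3% had 0 reads and 24.4% averaged 10 or more. All 42 together held 923, 944 and 1118 reads in C28 replicates 1 to 3 and 999, 1166 and 1105 reads in DMSO replicates 1 to 3, and 1 gene, Tex14, carried 50.6% to 55.6% of them with C28 and 46.4% to 54.0% with DMSO. The libraries held 16930212 to 17428321 reads with C28 and 18613916 to 19197376 with DMSO, and a count of 0 over all 108208382 reads allows up to 3 reads (counting error only).

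**Figure D1:**
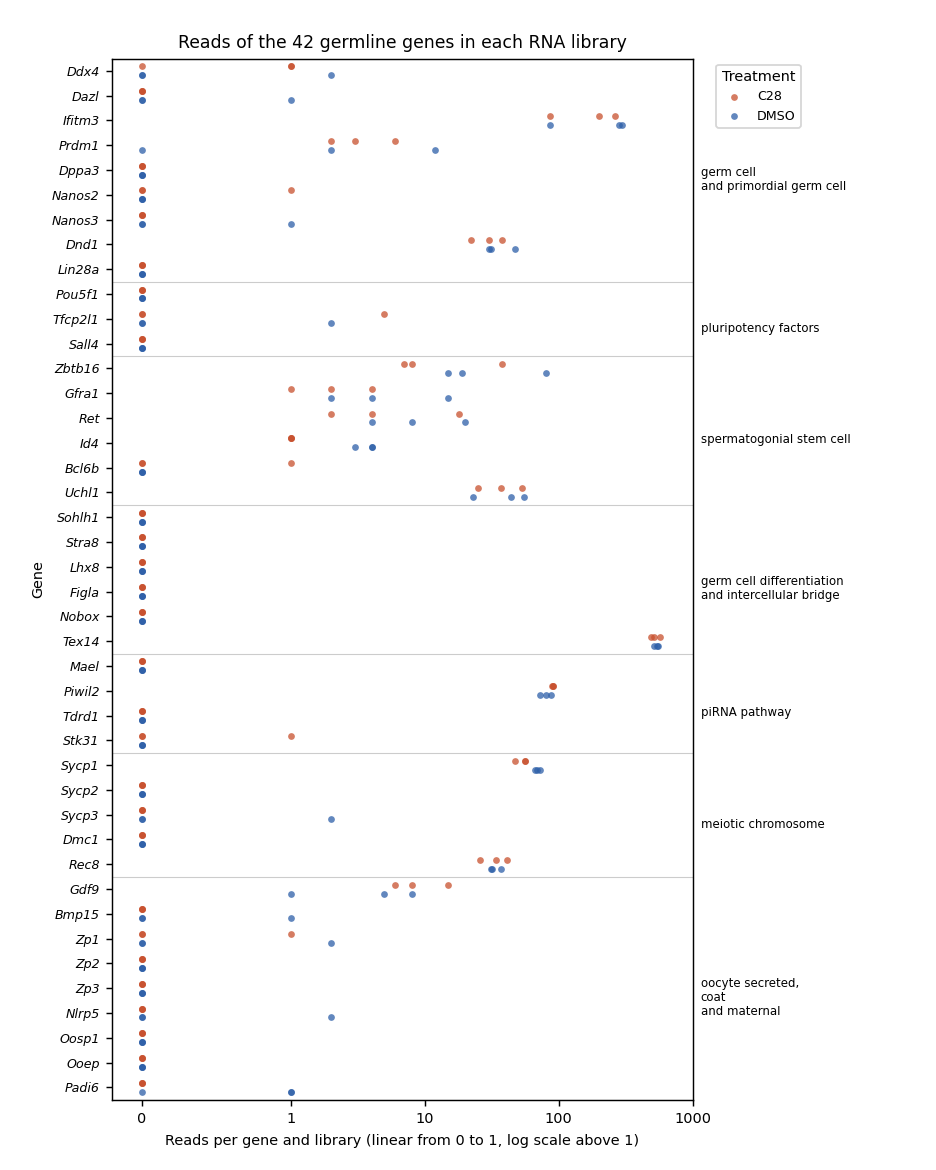
Reads of each of the 42 germline genes (rows, grouped by role) in each RNA library (points, 3 C28 and 3 DMSO) on an axis that is linear from 0 to 1 and logarithmic above. For 17 genes all 6 points lie at 0, and Tex14 lies farthest right, at 486 to 566 reads with C28 and 513 to 552 reads with DMSO.

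The windows before the start sites of 5 genes are shown because they set genes with reads, Tex14 and Sycp1, beside genes at or near 0, Mael, Sohlh1 and Dazl. Sequences are from RefSeq (GRCm38.p6), read 5′ to 3′ toward the gene, and hold the 250 bases before the start site, except that the Tex14 window is shortened to the 198 bases outside the annotated span of the gene. Capitals mark the E-box CACGTG and the E2F-type motif TTCCCGC, searched on both strands; the motifs do not overlap each other in these windows.
Tex14 (chr11:87404815-87405012, plus strand): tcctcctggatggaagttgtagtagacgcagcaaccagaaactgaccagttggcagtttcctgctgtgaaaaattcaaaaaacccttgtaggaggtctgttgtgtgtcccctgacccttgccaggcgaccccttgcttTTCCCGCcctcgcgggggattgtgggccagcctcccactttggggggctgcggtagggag
Sycp1 (chr3:102936101-102936350, minus strand): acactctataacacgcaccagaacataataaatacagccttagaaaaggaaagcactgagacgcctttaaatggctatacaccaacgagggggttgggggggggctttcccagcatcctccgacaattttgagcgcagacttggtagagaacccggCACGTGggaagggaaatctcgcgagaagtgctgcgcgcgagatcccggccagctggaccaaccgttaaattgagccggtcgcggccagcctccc
Mael (chr1:166238745-166238994, minus strand): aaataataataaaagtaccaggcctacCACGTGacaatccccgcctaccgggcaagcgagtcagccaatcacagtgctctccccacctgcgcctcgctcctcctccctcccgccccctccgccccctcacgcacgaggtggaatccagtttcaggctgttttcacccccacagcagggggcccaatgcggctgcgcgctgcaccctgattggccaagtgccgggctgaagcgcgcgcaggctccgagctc
Sohlh1 (chr2:25847249-25847498, minus strand): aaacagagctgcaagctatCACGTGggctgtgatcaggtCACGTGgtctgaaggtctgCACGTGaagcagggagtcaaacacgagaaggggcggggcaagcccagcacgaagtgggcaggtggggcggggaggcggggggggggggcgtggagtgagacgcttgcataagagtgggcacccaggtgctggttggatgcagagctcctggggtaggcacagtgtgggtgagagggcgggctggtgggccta
Dazl (chr17:50293621-50293870, minus strand): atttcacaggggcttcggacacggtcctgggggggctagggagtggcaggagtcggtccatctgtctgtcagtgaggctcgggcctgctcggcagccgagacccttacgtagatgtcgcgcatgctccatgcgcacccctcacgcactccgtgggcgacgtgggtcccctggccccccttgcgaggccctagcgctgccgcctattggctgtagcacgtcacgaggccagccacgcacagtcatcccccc

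Of the 42 genes, 32 had a window in the RefSeq table. CACGTG stood in 25% of the 32 and in 6.19% of 27025 genes with windows of the same length, taking for each gene its window with the most CpG. The genes holding it were divided over the read classes: 4 of 14 genes with 0 reads (Mael, Sohlh1, Tdrd1 and Zp3), 3 of 10 with 1 to 9 reads (Ddx4, Stk31 and Sycp3), and 1 of 5 averaging 10 or more (Sycp1). Sohlh1 held 3 copies. TTCCCGC stood in 12.5% of the 32, among them Tex14 and Ddx4, and in 4.02% of all genes. The median number of CpG in 250 bases was 9.5 for genes with 0 reads, 9.5 for those with 1 to 9 reads and 10 for those averaging 10 or more, against 6 for all genes; the 3 genes with more reads but averages below 10 had a median of 15 and none held CACGTG. These are descriptions of letters in a window, and no binding or methylation was measured.

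Among the germ cell RNA-binding proteins, Ddx4, a germ cell helicase, had 0, 1 and 1 reads with C28 and 0, 0 and 2 reads with DMSO. Dazl, which promotes translation in germ cells, had 1 read, in DMSO replicate 2. Nanos3, which protects primordial germ cells, also had 1 read, in DMSO replicate 2, and Nanos2, which keeps male germline stem cells undifferentiated, had 1 read in C28 replicate 1. Dppa3, a maternal and primordial germ cell protein, and Lin28a, a blocker of let-7 processing, had 0 reads.

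Dnd1, an RNA-binding protein needed for germ cell survival, was the gene of this kind with a level above 10. It was at 39.4, 23.6 and 30.8 normalized counts in C28 replicates 1 to 3 and at 43.9, 28.5 and 29.7 in DMSO replicates 1 to 3, with rank 10874 to 11594 by reads among all genes with C28 and 10618 to 11314 with DMSO (reads were not divided by gene length). The groups overlapped, and replicate 1 was the highest in both. The Dnd1 span overlaps that of Wdr55, which was at 937 to 1493 normalized counts with C28 and 1274 to 1618 with DMSO, and it is not known whether counting used strand, so the division of reads between them is uncertain.

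Ifitm3, an interferon-induced membrane protein found in many cell types and taken as a marker of germ cells, was at 89.2, 216 and 268 normalized counts with C28 and 80.4, 268 and 285 with DMSO. Its rank by reads was 8104 to 9779 with C28 and 7933 to 9870 with DMSO. Replicate 1 was the lowest library in both groups, and the groups overlapped. Prdm1, a repressor that specifies primordial germ cells and also acts in plasma cells and T cells, had 2, 3 and 6 reads with C28 and 0, 12 and 2 with DMSO. No order between the groups could be read from so few reads.

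Of the pluripotency factors, Pou5f1, the transcription factor OCT4, and Sall4, a zinc finger factor of stem and germ cells, had 0 reads. Tfcp2l1, a factor of naive stem cells that is also made in kidney epithelium, had 5, 0 and 0 reads with C28 and 2, 0 and 0 with DMSO. Its reads lay in the replicate 1 libraries of both groups.

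The spermatogonial stem cell genes were the one role with reads for every gene. Zbtb16, the factor PLZF, which maintains spermatogonial stem cells and also directs natural killer T cells, was at 39.4, 8.58 and 7.19 normalized counts with C28 and 74.8, 18.1 and 14.4 with DMSO. It was lower with C28 in 3 of 3 same-numbered pairs, with C28 to DMSO ratios of 0.527, 0.475 and 0.501, and its rank was 10874 to 13800 with C28 and 9963 to 12484 with DMSO. The groups overlapped because replicate 1 stood several times above the others in both, which the pairs leave aside.

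Uchl1, a deubiquitinase of spermatogonia and of neurons, was at 25.9, 39.7 and 54.5 normalized counts with C28 and 21.5, 52.3 and 42.1 with DMSO, with rank 10485 to 11483 with C28 and 10466 to 11611 with DMSO. Replicate 1 was the lowest in both groups. Ret, the GDNF receptor kinase, had 18, 4 and 2 reads with C28 and 20, 8 and 4 with DMSO, highest in replicate 1 of both. Gfra1, the co-receptor that Ret needs for GDNF, had 2, 1 and 4 reads with C28 and 2, 15 and 4 with DMSO, so that 1 library, DMSO replicate 2, held most of them. Its ratio of 7 to 21 reads, per read of the libraries, was 0.367, with a 95% exact interval from 0.132 to 0.895 that covers counting error only.

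Id4, an inhibitor of helix-loop-helix factors that marks spermatogonial stem cells and also acts in neural precursors, had 1, 1 and 1 reads with C28 and 4, 3 and 4 with DMSO. The groups did not overlap, but the ratio of 3 to 11 reads, per read of the libraries, was 0.30 with a 95% exact interval from 0.0537 to 1.14 that covers counting error only. Bcl6b, a repressor of self-renewing spermatogonia, had 1 read, in C28 replicate 1.

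Among differentiation genes, Sohlh1 and Lhx8, transcription factors of early oocytes, Figla and Nobox, which start the oocyte programme, and Stra8, which marks entry into meiosis, had 0 reads. Tex14, which holds open the intercellular bridges between germ cells, was unlike them. It was at 532, 522 and 582 normalized counts with C28 and 504, 525 and 491 with DMSO (545 ± 32.1 and 507 ± 17.4, SD, n = 3 each). Its rank by reads was 6021 to 6369 with C28 and 6372 to 6580 with DMSO, among 20020 to 20302 and 19940 to 20256 genes with reads. The groups overlapped, and the replicate 1 libraries did not stand apart.

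In the piRNA pathway, Mael, a protein of the germ cell nuage, and Tdrd1, a Tudor scaffold of PIWI proteins, had 0 reads, and Stk31, a Tudor-domain kinase-like protein, had 1 read, in C28 replicate 3. Piwil2, the PIWI protein MILI, was at 93.4, 96.6 and 91.5 normalized counts with C28 and 75.7, 82.8 and 69.8 with DMSO. All 3 C28 libraries lay above all 3 DMSO libraries. Its rank was 9699 to 9837 with C28 and 9893 to 10162 with DMSO.

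Of the meiotic chromosome genes, Sycp2, an axis protein of the synaptonemal complex, and Dmc1, the meiotic recombinase, had 0 reads. Sycp3, the other axis protein, had 2 reads in DMSO replicate 3, and its span overlaps that of Chpt1, which was at 202 to 303 normalized counts with C28 and 164 to 259 with DMSO. Sycp1, the transverse filament that zips paired axes together, was at 48.8, 60.1 and 57.6 normalized counts with C28 and 67.3, 63.8 and 66.0 with DMSO, all 3 C28 libraries below all 3 DMSO libraries. Its rank was 10289 to 10557 with C28 and 10097 to 10237 with DMSO. Rec8, the meiotic cohesin subunit, was at 42.5, 27.9 and 35.0 with C28 and 34.6, 29.5 and 30.6 with DMSO, which overlapped, with rank 10749 to 11329 and 10928 to 11262.

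Of the oocyte genes, Zp2 and Zp3, coat proteins of the egg, Oosp1, a secreted protein, and Ooep, a maternal protein of the egg cortex, had 0 reads. Zp1, another coat protein, had 0, 0 and 1 reads with C28 and 0, 0 and 2 with DMSO. Bmp15, an oocyte growth factor, had 1 read, and Nlrp5 and Padi6, maternal effect proteins, had 2 reads each, all of them with DMSO.

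Gdf9, the growth factor through which oocytes instruct granulosa cells, had 15, 8 and 6 reads with C28 and 5, 1 and 8 with DMSO. The groups overlapped, and its log2 fold change was 1.19 ± 0.63 (SE), with a limma adjusted p of 0.745. The ratio of 29 to 14 reads, per read of the libraries, was 2.28, with a 95% exact interval from 1.17 to 4.67 that covers counting error and not the spread between libraries. Its span overlaps that of Uqcrq, a respiratory chain gene at 1872 to 2062 normalized counts with C28 and 1682 to 2236 with DMSO, so the origin of these reads is uncertain.

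**Figure D2:**
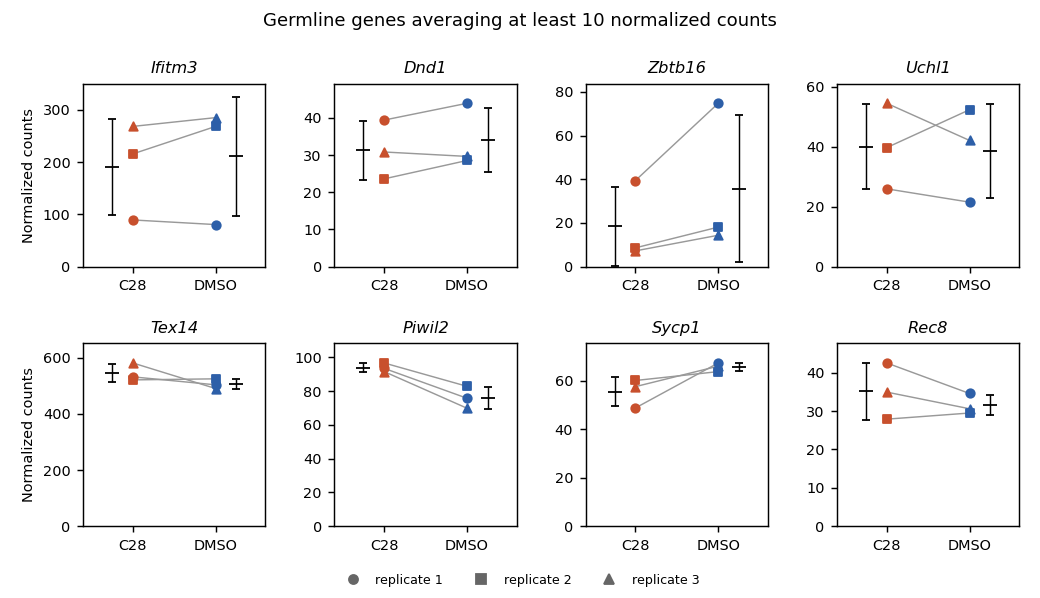
Normalized counts (linear axes from 0) of the 8 germline genes averaging at least 10, with C28 on the left and DMSO on the right of each panel, marker shapes and grey lines for the same replicate number, and black bars for mean ± SD (n = 3). Replicate 1 is lowest for Ifitm3 (89.2 with C28, 80.4 with DMSO) and highest for Zbtb16 (39.4 and 74.8). Piwil2 (C28 above) and Sycp1 (C28 below) do not overlap between treatments, as 14.6% of all tested genes did not.

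The question of the design is whether C28 changed these genes. None of them passed. Of the 42 genes, 14 met the filter for testing (3 or more of the 6 libraries at a value of 1 or above) and 0 were called at an adjusted p under 0.05 in limma, a linear model with shared variance fitted over 19087 genes on log2(value + 1), where 0.136% of all tested genes were called (0.121% higher and 0.0157% lower with C28). With the replicate number as a block, limma called 0 of the 14 against a background of 4.79% (914 genes; 2.54% higher and 2.25% lower), edgeR's quasi-likelihood test called 0 against 0.147% of all genes, and DESeq2, which gave an adjusted p for 8 of the 14, called 0 against 0.954%. At an unadjusted p under 0.05 limma had 1 of the 14 without the block, Id4, where 7.83% of all tested genes were, and 1 with it, Zbtb16, where 18.2% were. Of the 14, 7 had a log2 fold change above 0, as did 9733 of the 19087 genes.

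The tests left wide intervals for most of them. For Tex14 the log2 fold change was 0.10 ± 0.09 (SE), with a 95% interval from -0.10 to 0.31 and a limma adjusted p of 0.878. For Piwil2 it was 0.30 ± 0.16, from -0.07 to 0.67, adjusted p 0.744 in limma. For Zbtb16 it was -0.94 ± 0.79, from -2.78 to 0.91, adjusted p 0.88 in limma; with the replicate block the SE was 0.29 and the interval ran from -1.58 to -0.29, with a limma adjusted p of 0.111. Without C28 replicate 1 the log2 fold change of Zbtb16 was -1.67 and without DMSO replicate 1 it was -0.22.

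For Sycp1 the log2 fold change was -0.24 ± 0.18, from -0.68 to 0.19, and the limma adjusted p was 0.858. Ifitm3, at -0.08, had an interval from -1.40 to 1.23, and Uchl1, at 0.08, one from -0.87 to 1.02, so a change of 2-fold either way lies within the first and, upward, within the second. With the replicate block the intervals ran from -0.35 to 0.19 for Ifitm3 and from -0.46 to 0.62 for Uchl1, and both leave out a 2-fold change. The sign of the log2 fold change turned for Ifitm3, Dnd1, Uchl1 and Rec8 when 1 library was left out. All 3 C28 libraries lay above all 3 DMSO libraries for 1 of the 14, Piwil2, and below for 2, Sycp1 and Id4, where 8.15% and 6.5% of all tested genes did so, and 14.6% one way or the other. In the authors' deposited table an adjusted p is given for 8 of the 42, 0.9995 for each, and for 34 there is none.

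**Figure D3:**
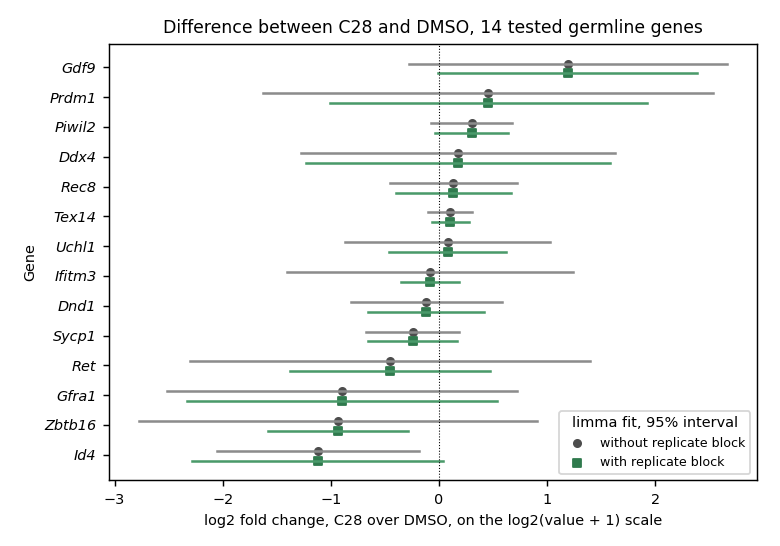
Log2 fold change of C28 over DMSO on the log2(value + 1) scale (x) for the 14 tested germline genes (y), with 95% intervals of the limma fit without (grey circles) and with (green squares) the replicate number as a block. Tex14 has the narrowest interval without the block, from -0.10 to 0.31, and Zbtb16 narrows with it to -1.58 to -0.29.

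Some of these genes differed between the replicate numbers. In limma's F test between the 3 replicate numbers, with treatment in the model, 3 of the 14 tested genes were called, where 16.2% of all tested genes were. They were Ifitm3 (limma adjusted p 4.89e-05), Zbtb16 (limma adjusted p 0.00239) and Ret (limma adjusted p 0.0231). When only genes averaging at least 10 were tested, limma called 3 of 8, where 3706 of all 13240 tested genes were called. The edgeR test called 4 of the 14, where it called 3889 of 19087 genes. In limma with both replicate 1 libraries left out, 0 of the 14 were called, where 0.403% of all tested genes were. Uchl1 missed the threshold (limma adjusted p 0.0694), and Tex14, Piwil2 and Sycp1 had limma adjusted p of 0.939, 0.828 and 0.926.

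Markers of other cells also differed between the replicate numbers, some lowest and some highest in replicate 1. A list of 10 fibroblast and feeder cell genes had 6 averaging 10 or more and 0 at 0 reads. It summed to 1123, 1731 and 2812 normalized counts with C28 and 1073, 1984 and 2704 with DMSO, lowest in replicate 1 like Ifitm3 and Uchl1. Most of that sum was Dcn, at 873, 1217 and 2115 with C28 and 829, 1270 and 1811 with DMSO. Lum and Postn had 2 reads each in total. In this list Pdgfrb, a PDGF receptor, fell by 0.57 on the log2 scale with the replicate block (limma adjusted p 0.0353) and did not pass without it (limma adjusted p 0.948). A list of 8 lymphoid genes summed to 740, 89.1 and 87.4 with C28 and 809, 124 and 97.6 with DMSO, highest in replicate 1 like Zbtb16 and Ret. That order was set by Gzmb, a granule protease of lymphocytes and some mast cells, at 730, 63.3 and 57.6 with C28 and 796, 89.5 and 67.0 with DMSO. Il7r, an interleukin receptor and the other lymphoid marker averaging 10 or more, was lowest in replicate 1, at 10.4, 22.5 and 29.8 with C28 and 8.41, 26.6 and 29.7 with DMSO, and Cd3g, Ncr1 and Klrb1c were among those with 0 reads. In the F test between replicate numbers limma also called 8 of 11 tested leukocyte markers and 7 of 8 tested mast cell and basophil markers, in both orders. It called 6 of 8 tested fibroblast and feeder markers and 2 of 3 tested lymphoid markers. Of all tested genes 16.2% were called. When only genes averaging at least 10 were tested, 3706 of 13240 were. Cd68, a macrophage lysosomal protein, was lowest in replicate 1, at 182, 545 and 439 with C28 and 165, 654 and 470 with DMSO, as was Hdc, the histamine-forming enzyme, at 2.08, 113 and 117 with C28 and 1.87, 112 and 97.6 with DMSO. Laptm5, a lysosomal protein of blood cells, was highest there, at 5871, 3798 and 3645 with C28 and 5249, 3795 and 3709 with DMSO. Cd68, Hdc and Laptm5 were chosen after their values were seen. The part of such cells in the levels of these genes was not tested, and fewer cells of a type cannot be told apart from less RNA per cell in bulk samples.

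Set against the label, most of a chosen list of germ cell markers were at or near 0. Of 8 germline markers, all among the 42 genes, Dppa3 and Pou5f1 had 0 reads, 5 had fewer than 10 and 1, Dnd1, averaged 10 or more. The list summed to 24.7 to 40.5 normalized counts with C28 and 30.5 to 43.9 with DMSO. Most of that sum was Dnd1, at 23.6 to 39.4 with C28 and 28.55 to 43.9 with DMSO. Its reads are uncertain because its span overlaps that of Wdr55. The list was chosen with earlier results known. Left out of it are other genes of the 42 averaging 10 or more: Tex14 (526), Ifitm3 (201), Piwil2 (85.0), Sycp1 (60.6), Uchl1 (39.3), Rec8 (33.35) and Zbtb16 (27.1). Of 12 leukocyte markers 10 averaged 10 or more, with Ptprc, the surface protein CD45, at 7798 ± 969 and 7255 ± 816 normalized counts (SD, n = 3 each), and the list summed to 22380 to 27290 with C28 and 22420 to 26320 with DMSO. Csf1r and Itgam had 11 and 5 reads in total, and Lyz2 averaged 14.4. Of 12 mast cell and basophil markers 8 averaged 10 or more, led in counts by Gata2, a blood progenitor and mast cell transcription factor, and Kit, while Fcer1a and Tpsb2 had 0 reads. That list summed to 56510 to 58240 with C28 and 61210 to 61840 with DMSO. Most of the sum was Gata2, averaging 22410 with C28 and 25070 with DMSO, and Kit, which germ cells also make, averaging 19930 and 22050. Mcpt4 and Ms4a2 had 4 and 3 reads in total. Endothelial markers summed to 15.6 to 32.2 with C28 and 21.5 to 42.8 with DMSO, and neural markers to 18.5 to 20.4 and 15.0 to 28.6. Most of the endothelial sum was Pecam1, at 14.5 to 32.2 with C28 and 18.7 to 35.2 with DMSO. Cdh5, Tek, Tie1, Emcn and Kdr had 5, 4, 2, 2 and 1 reads in total. Epithelial markers summed to 0 in every C28 library and to at most 2.85 with DMSO, with Epcam, Krt8, Krt18 and Krt19 at 0 reads. Of 14 ovarian somatic markers 4 averaged 10 or more, and Foxl2, Inhbb, Cyp19a1 and Hsd3b1 had 0 reads. The list summed to 5953 to 7847 with C28 and 6130 to 7900 with DMSO, of which Cyp11a1, the enzyme that starts steroid synthesis, made up 5691 to 7668 and 5887 to 7728. Star, Inhba and Amh also averaged 10 or more, at 106, 93.9 and 12.5 normalized counts.

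**Figure D4:**
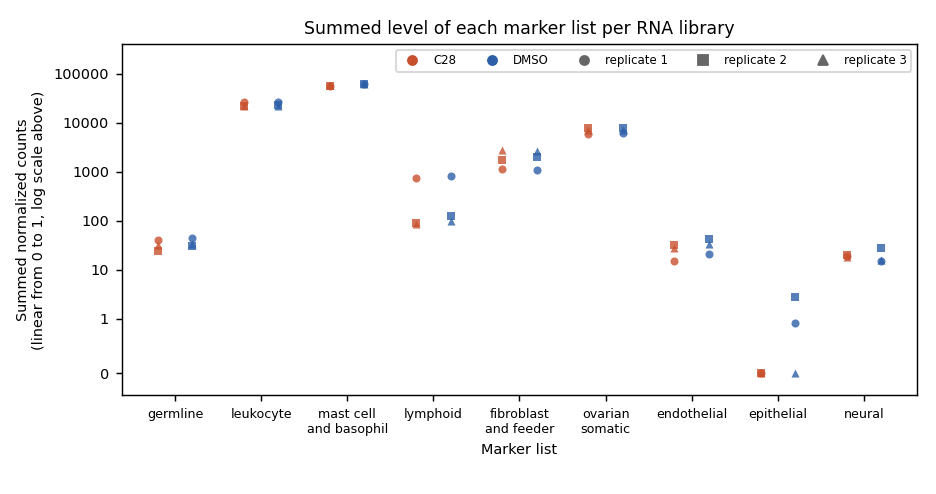
Summed normalized counts of 9 marker lists (x) in each RNA library (points; colour for treatment, shape for replicate number) on an axis linear from 0 to 1 and logarithmic above. The germline list, which leaves out Tex14 and Ifitm3 and is mostly Dnd1, lies between 24.7 and 43.9, and the mast cell and basophil list between 56510 and 61840.

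Other genes of the same pathways were also divided into genes with reads and genes without. Of 101 genes listed beside the 42, 32 had 0 reads, 29 had 1 to 9 and 29 averaged 10 or more. Which cell types their reads came from was not tested. In the stem and primordial germ cell list of 24, those with the most reads were Kit, Itga6, Tex19.1, Etv5 and Taf4b, while Nanog, Sox2, Tfap2c, Dppa4, Dppa5a, Dmrt1, Neurog3 and Rhox9 had 0 reads. Kit, the stem cell factor receptor, made by germ cells, mast cells and blood progenitors, was at 19930 ± 3115 with C28 and 22050 ± 1757 with DMSO. Tex19.1, a germline and placental protein that restrains transposons, was at 2043, 1870 and 1817 normalized counts with C28 and 1687, 1564 and 1563 with DMSO, with no overlap; it did not pass in limma without the block (log2 fold change 0.25 ± 0.07, adjusted p 0.455) and rose with it (SE 0.05, adjusted p 0.0157). It was the only one of the 101 called in either limma fit, where 0.136% of all tested genes were called without the block and 4.79% with it. Tested were 10 of the 24 genes of this list, and 13, 17 and 4 genes of the piRNA, meiosis and oocyte lists below.

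In the piRNA list of 23, 6 genes averaged 10 or more, led in reads by Gpat2, Tdrkh, Mybl1, Tdrd7 and Piwil4. Piwil4, the PIWI protein MIWI2, was at 33.2, 128 and 122 normalized counts with C28 and 22.4, 99.9 and 88.0 with DMSO, lowest in replicate 1 of both groups (limma F test between replicate numbers, adjusted p 0.000126). Piwil1, Tdrd9, Asz1, Pld6, Spocd1 and Ctcfl had 0 reads. Mybl1, the A-MYB factor that drives piRNA precursors in mouse spermatocytes, was at 441, 404 and 371 with C28 and 377, 311 and 321 with DMSO, which overlapped.

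In the meiosis list of 33, 11 genes averaged 10 or more and 9 had 0 reads, among them Hormad1, Syce1, Syce3, Tex12 and Tex15. Those with the most reads were Trip13, Syce2, Psmc3ip, Ythdc2 and Mlh3. Syce2, a central element protein of the synaptonemal complex, was at 948, 1004 and 860 normalized counts with C28 and 1001, 931 and 1007 with DMSO, which overlapped. Prdm9, the histone methyltransferase that places meiotic breaks, was at 119, 160 and 172 with C28 and 151, 133 and 126 with DMSO, which also overlapped; Prdm9 was chosen after its values were seen. In the oocyte list of 21, Npm2, a nucleoplasmin of the egg, and Tle6, of the maternal cortex, averaged 16.9 and 14.2, and Pabpc1l, Astl and Fmn2, next in reads, averaged 2.98, 1.49 and 0.635. Zar1, Mos, Nlrp14 and 6 more had 0 reads.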

How the data were processed

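Processed values were taken as deposited. The expression table holds signal values in which the authors scaled read counts with a factor for each library: divided by the step that 1 read is worth, 100% of the values came out whole (tolerance 0.01), and that step was above 1 in the C28 and below 1 in the DMSO libraries. The authors also deposited a log2 fold change and an adjusted p-value per gene. Per the submitters' processing notes the tools were Bowtie2 and Cufflinks 2.2.1 and the build mm9, with no role given, and for the counting tool, annotation and strand setting nothing is given in the sources used here. Per the labels' protocols, mRNA was sequenced as read pairs, and the kits named are 2, only 1 of them directional. The labels name no marker or sort used to obtain the cells.

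The members, lists, markers and naming rule (levels per library for genes averaging at least 10, totals for the others, called genes and the 5 with the most reads of the other lists) were chosen with earlier results of these data known. The values of Prdm9 and the names of genes at 0 in the other lists were added after their values were seen. The design planned limma for a normalized unit. Genes reaching a value of 1 in 3 or more libraries were tested on log2(value + 1) with limma 3.58.1 in R 4.3.3 (intensity trend, Benjamini-Hochberg adjustment, threshold 0.05); this filter takes 1 read as enough in a C28 but not in a DMSO library, so 1 read in at least 3 libraries was tried too. edgeR 4.0.16 and DESeq2 1.42.0 were run on the recovered reads. The limma fits were also run on simulated data, in which treatment changes came without differences between replicate numbers. Those runs do not tell how the fits behave on these libraries, and no result here rests on them.

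Replicate numbers come from the titles. Over 10578 genes averaging at least 50, the deviations of same-numbered libraries from their group means correlated at 0.844, 0.683 and 0.705 for numbers 1 to 3, and differently numbered ones at -0.75 to 0.543, the highest between C28 replicate 3 and DMSO replicate 2, so that numbers 2 and 3 are less clearly told apart than 1 from both. All 3 same-numbered values being above 0.1, the numbers were taken as pairs from the data, and a fit with the number as a block was made. C28 replicate 2 with DMSO replicate 3 (0.411) and C28 replicate 3 with DMSO replicate 2 (0.543) also exceeded 0.1. This rule therefore does not settle how numbers 2 and 3 pair, and the block fit takes the pairing of the titles. No libraries of a group agreed within counting noise (chi-square per gene of at least 5.23).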

Additional observations from a re-analysis of the deposited data

How the results depend on the processing

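No germline gene of the 42 was called between C28 and DMSO under any alternative run, while the number of all genes called, 26 of 19087, moved. It was 914 with the replicate number as a block and 182 in DESeq2, and it ranged from 0 to 23 when 1 library was left out in turn (0 without C28 replicate 2, where 1207 genes had an unadjusted p under 0.05 in limma). With both replicate 1 libraries left out, chosen after seeing the data, it was 90, and 854 with the block. The causes were not tested. The block changed no call among the 42. For the difference between replicate numbers, 3100 genes and 3 of the 42 were called, against 77 to 2144 genes and 0 to 3 of the 42 when 1 replicate number was left out, the lowest of both without replicate 1.

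With 1 library left out, the log2 fold change of Zbtb16 lay between -1.67 and -0.22, without a turn in direction. The log2 fold change of Ifitm3 lay between -0.674 and 0.389, that of Dnd1 between -0.297 and 0.0722, that of Uchl1 between -0.286 and 0.351, and that of Rec8 between -0.0117 and 0.284, so the direction of these 4 turned. With both replicate 1 libraries left out that of Uchl1 was -0.0127, with and without the block. The count averaging at least 10 was 8 or 9 with 1 library left out. At other cutoffs, 10 genes averaged at least 5, and 7 had at least 10 in every library. The count at 0 reads stayed between 17 and 20. The planned peaks at start sites were not run. Depth limits the genes with few reads, and 1 read more or less moves them.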
